A study of Homo sapiens with 6 samples.

Results

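Vitamin K-dependent Gla proteins and the TAM receptors were examined in erastin-treated ARPE-19 cells. The 9 genes were taken by symbol: 6 genes of Gla proteins (GAS6, PROS1, MGP, PRRG1, PRRG2 and PRRG4) and the 3 TAM receptor genes (AXL, TYRO3 and MERTK). The 33496 genes listed in every library include 8 of the 9 members. MGP, a secreted inhibitor of calcification, was not analysed here. AXL was by far the most abundant TAM receptor transcript, at 83.4 to 90.71 FPKM, and PROS1 was the more abundant ligand transcript, at 45.17 to 48.77 FPKM. None of the 5 members tested passed the adjusted threshold of 0.05 in limma between Era+VK and Era.

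ARPE-19 is an established human retinal pigment epithelial (RPE) cell line. The titles name it for all 6 samples, but the cell line field names it for 1 sample and counts upwards over the other 5 (ARPE-20 to ARPE-24), and all were taken as ARPE-19. All 6 cultures were wild type and received erastin (5 μM for 24 h), a blocker of cystine import that triggers ferroptosis. The Era group (3 libraries) had no vitamin K1, and the Era+VK group (3 libraries) was pretreated with VK1 (10 μM for 1 h). No erastin-free culture entered the comparison, which therefore bears on VK1 pretreatment under erastin and says nothing of erastin itself. Nothing in the labels states whether the 3 libraries of a group came from separate cultures, so the p-values measure only the spread between these libraries. In bulk RNA, fewer cells of a kind and less RNA per cell cannot be told apart.

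Gla proteins carry glutamate residues that gamma-glutamyl carboxylase converts to gamma-carboxyglutamate, using reduced vitamin K as cofactor. The modified residues bind calcium and let the protein dock on phosphatidylserine exposed by dying cells and by photoreceptor outer segments. GAS6 and protein S (the product of PROS1) bridge that lipid to the TAM receptor tyrosine kinases, and in the RPE this route, through MERTK, serves the daily uptake of shed outer segments. Carboxylation acts on the protein, so the transcript levels described here do not measure it.

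Part of the coding stretch around the carboxylated glutamates is shown, since the Gla protein genes share a motif there. The vitamin K-dependent enzyme acts on glutamates of this region in the protein. Glutamate codons before or after the stretch are not shown, so those counted below need not be all the carboxylated ones. The sequences are from GENCODE 29 transcripts on GRCh38 and run 5′ to 3′ on the coding strand over 84 bases. Glutamate codons in frame are in capitals, and each stretch ends 1 codon after a motif of a glutamate codon (GAA or GAG), 3 codons of any kind, a second glutamate codon, 1 codon of any kind and a cysteine codon (TGC or TGT).
GAS6 (chr13:113863617-113863700, minus strand, exon 2 of 15): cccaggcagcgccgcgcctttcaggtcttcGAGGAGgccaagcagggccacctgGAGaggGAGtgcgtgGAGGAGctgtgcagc
PROS1 (chr3:93927292-93927375, minus strand, exon 2 of 16): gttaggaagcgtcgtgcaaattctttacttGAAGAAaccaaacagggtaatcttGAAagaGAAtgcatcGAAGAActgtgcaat
PRRG1 (chrX:37425875-37425958, plus strand, exon 3 of 4): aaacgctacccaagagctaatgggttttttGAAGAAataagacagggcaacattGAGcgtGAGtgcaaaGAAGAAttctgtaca
PRRG2 (chr19:49583592-49583675, plus strand, exon 3 of 7): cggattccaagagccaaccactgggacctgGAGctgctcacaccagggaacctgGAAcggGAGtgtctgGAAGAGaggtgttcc
PRRG4 (chr11:32836696-32836779, plus strand, exon 3 of 6): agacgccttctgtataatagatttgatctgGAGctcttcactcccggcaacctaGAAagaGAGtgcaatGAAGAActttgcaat
MGP (chr12:14882229-14883003, minus strand, across the junction of exons 3 and 4 of 4): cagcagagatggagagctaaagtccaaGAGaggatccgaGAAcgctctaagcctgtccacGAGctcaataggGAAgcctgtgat

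Each of the 6 coding sequences held the motif once. It is not particular to them, since 1099 of 19529 protein-coding genes (5.63%) held it in frame on the coding strand. GAS6, PROS1 and PRRG1 had 6 glutamate codons among the 28 codons shown, PRRG2 and PRRG4 had 5 and MGP had 4. For GAS6 this was 21.4% of the stretch against 7.08% of all codons, and for MGP 14.3% against 8.74%. The motif itself needs glutamate codons, so part of the excess was fixed by the choice of stretch. Stretches of other genes with the motif were not compared. The stretches of GAS6 and PROS1, the ligand pair, were identical at 51 of 84 bases (60.7%), the most of any pair. PROS1 and PRRG1 shared 50 of 84 (59.5%), so this likeness was not particular to the ligands. GAS6 and MGP shared 21 of 84, the fewest of any pair. The coding sequences of AXL, TYRO3 and MERTK, of 894, 890 and 999 codons, held no such motif.

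All levels are FPKM (fragments per kilobase and per mapped library), which correct for transcript length and can therefore be set side by side between genes. In order of their mean over the 6 libraries the members stood as AXL (87.4 FPKM), PROS1 (47.3), GAS6 (10.01), PRRG1 (5.45), TYRO3 (1.68), PRRG4 (0.935), MERTK (0.507) and PRRG2 (0.225). Each neighbour in this order was separated from the next over all 6 libraries except MERTK and PRRG2, whose ranges met (lowest MERTK value 0.42, highest PRRG2 value 0.44). Within each library MERTK was nevertheless above PRRG2, in 6 of 6. Among all 33496 genes AXL ranked 308th, with 99.1% of genes below it, and PROS1 ranked 684th. For scale, GAPDH was listed at 2828.08 to 2991.73 FPKM. ACTB was listed at 619.75 to 658.19 FPKM in Era and at 574.02 to 578.23 FPKM in Era+VK, lower in every Era+VK library (limma adjusted p = 0.24).

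**Figure D1:**
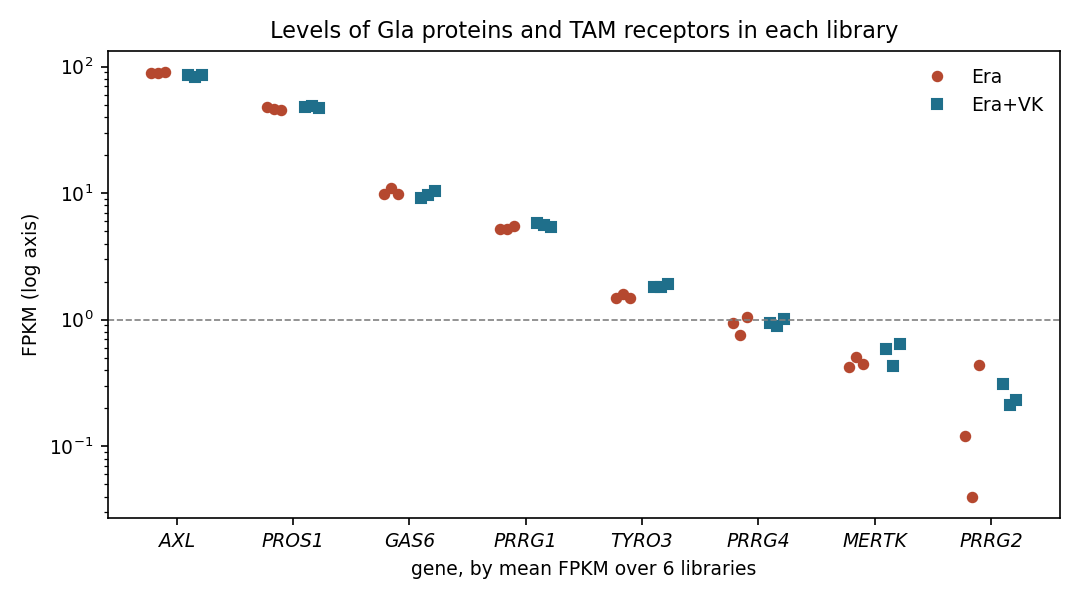
FPKM of the 8 members on a log axis, with a circle for each Era library and a square for each Era+VK library, and a dashed line at 1 FPKM, the mean needed for testing. The levels fall from AXL, at 83.4 FPKM or more in every library, to PRRG2, at 0.44 or less, and the differences between genes are far larger than those between the groups.

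Of the 2 ligands, GAS6 (ENSG00000183087, chromosome 13, 113820549 to 113864067, minus strand) binds all TAM receptors. Its levels were 9.84, 11.03 and 9.82 FPKM in Era and 9.22, 9.75 and 10.43 FPKM in Era+VK. The groups overlapped, with the highest value in Era and the lowest in Era+VK. On the log2(FPKM + 1) scale, used for every difference below, GAS6 differed by -0.06 (standard error 0.063, 95% interval -0.20 to 0.09, limma adjusted p = 0.71).

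PROS1 (ENSG00000184500, chromosome 3, 93873033 to 93980003, minus strand) encodes protein S, an anticoagulant cofactor and a ligand of TYRO3 and MERTK. It was listed at 47.71, 46.38 and 45.17 FPKM in Era and at 48.10, 48.77 and 47.49 FPKM in Era+VK. The values overlapped by a small margin, since 1 Era library stood above the lowest Era+VK library. The difference was 0.05 (standard error 0.040, 95% interval -0.04 to 0.14, limma adjusted p = 0.576). The interval corresponds to a change between 0.97 and 1.11 times in FPKM + 1. PROS1 was 4.55 ± 0.325 times GAS6 in Era and 4.92 ± 0.339 times in Era+VK (SD, n = 3), and GAS6 made up 18.1% and 16.9% of the summed FPKM of both. That share differed by -1.14 percentage points (exact permutation test, two-sided p = 0.3, where 3 libraries against 3 allow no p below 0.1). Its size hung on single libraries, since it was -0.56 without Era replicate 2, -0.722 without Era+VK replicate 1 and -1.97 without Era+VK replicates 2 and 3, with GAS6 taking the smaller share in Era+VK each time.

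The other Gla proteins analysed are the transmembrane PRRG proteins, whose short cytoplasmic tails carry PPxY motifs that bind WW domains. PRRG1 (ENSG00000130962, chromosome X, 37349275 to 37457295, plus strand) was listed at 5.22, 5.17 and 5.48 FPKM in Era and at 5.80, 5.59 and 5.43 FPKM in Era+VK. Its lowest Era+VK value lay under the highest Era value, so the groups overlapped. It differed by 0.07 (standard error 0.049, 95% interval -0.04 to 0.18, limma adjusted p = 0.519).

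PRRG4 (ENSG00000135378, chromosome 11, 32829943 to 32858123, plus strand) was listed at 0.95, 0.76 and 1.06 FPKM in Era and at 0.94, 0.89 and 1.01 FPKM in Era+VK. PRRG2 (ENSG00000126460, chromosome 19, 49580646 to 49591015, plus strand) was listed at 0.12, 0.04 and 0.44 FPKM in Era and at 0.31, 0.21 and 0.23 FPKM in Era+VK. Both had means under 1 FPKM and were not part of the test across genes. Exact two-sided permutation tests gave p = 0.9 for PRRG4 and p = 0.8 for PRRG2. PRRG2 varied most among the Era libraries of all members, with a coefficient of variation of 106% against 0.983% for AXL. NOSIP overlaps PRRG2 on the other strand and was listed at 6.43 to 7.79 FPKM. Whether reads were assigned by strand is not given in the sources used here, so the low PRRG2 values are uncertain.

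Among the receptors, AXL (ENSG00000167601, chromosome 19, 41219203 to 41261766, plus strand) is the GAS6 receptor of many epithelial and mesenchymal cells. Its levels were 88.95, 89.72 and 90.71 FPKM in Era and 86.09, 83.40 and 85.61 FPKM in Era+VK. The 3 Era+VK values all lay under the 3 Era values, with no overlap. AXL averaged 89.8 ± 0.882 FPKM without and 85.0 ± 1.43 FPKM with VK1 (SD, n = 3), a difference of -5.30% in mean FPKM. In limma the log2 difference was -0.08 (standard error 0.038, 95% interval -0.17 to 0.01, unadjusted p = 0.0789, adjusted p = 0.375), which did not pass.

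TYRO3 (ENSG00000092445, chromosome 15, 41557675 to 41583586, plus strand) is a receptor best known from the nervous system that also occurs in the RPE. It was listed at 1.48, 1.59 and 1.48 FPKM in Era and at 1.80, 1.81 and 1.90 FPKM in Era+VK. The 3 Era+VK values all lay above the 3 Era values, the opposite order to AXL. TYRO3 averaged 1.52 ± 0.0635 FPKM without and 1.84 ± 0.0551 FPKM with VK1 (SD, n = 3), a difference of 21.1%. In limma the log2 difference was 0.17 (standard error 0.061, 95% interval 0.03 to 0.31, unadjusted p = 0.0222, adjusted p = 0.237), so TYRO3 did not pass either.

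MERTK (ENSG00000153208, chromosome 2, 111898479 to 112029561, plus strand), the receptor required for outer segment uptake by the RPE in vivo, was listed at 0.42, 0.51 and 0.45 FPKM in Era and at 0.59, 0.43 and 0.64 FPKM in Era+VK. The groups overlapped through Era+VK replicate 2. MERTK was under the level needed for the test across genes, and the exact two-sided permutation test gave p = 0.3. The TAM receptor transcripts of these cells were thus almost all AXL. AXL made up 97.91%, 97.71% and 97.92% of the summed receptor FPKM in Era and 97.30%, 97.38% and 97.12% in Era+VK. The share was lower in every Era+VK library, by 0.58 percentage points (97.85 ± 0.115% against 97.27 ± 0.136%, SD, n = 3; p = 0.1 in the exact two-sided permutation test, which cannot go lower here). The summed receptor level averaged 91.8 ± 0.896 FPKM without and 87.4 ± 1.55 FPKM with VK1, with no overlap (exact permutation test, two-sided p = 0.1). AXL made up almost all of that sum, so its order repeats that of AXL and is no separate result. As a description chosen after the values were seen, AXL stood at 56.4 to 61.3 times TYRO3 in Era and at 45.1 to 47.8 times in Era+VK.

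**Figure D2:**
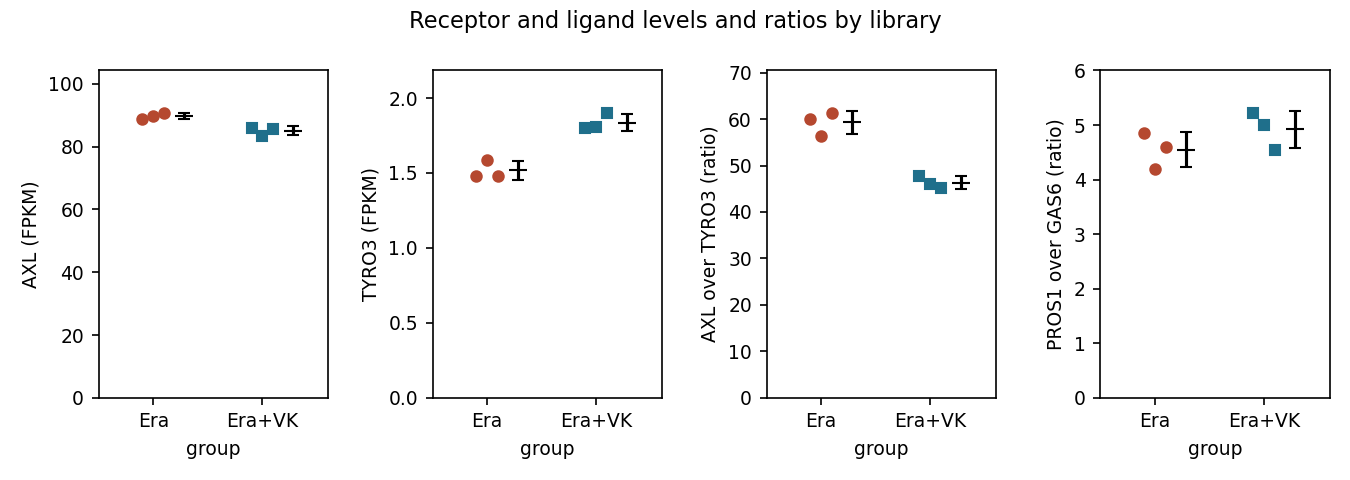
AXL and TYRO3 in FPKM, the ratio of AXL to TYRO3 and the ratio of PROS1 to GAS6, by group, with a symbol for each library and the mean with its SD beside the 3 symbols. All axes start at 0. AXL stands at 85.0 FPKM on average in Era+VK against 89.8 in Era and TYRO3 at 1.84 against 1.52, with no overlap in either, while the ratio of PROS1 to GAS6 overlaps between the groups.

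Of the 5 members tested, 0 were called higher, against 0.134% of the 11981 genes tested, and 0 were called lower, against 0.484%. At an unadjusted p under 0.05 in limma, 1 member was higher (TYRO3), against 10.4% of all genes, and 0 were lower, against 5.42%. Groups without overlap were seen for 1 member higher in Era+VK (TYRO3), against 15.1% of all genes, and for 1 member lower (AXL), against 7.04%. With 5 members these counts do not stand apart from the background. The median log2 difference was 0.05 over the tested members and 0.03 over all genes tested. The largest difference of a tested member was 0.17, and the smallest difference of any gene that was called was 0.26. At the smallest t value of a called gene, and with its own standard error, AXL would have needed a difference of 0.24, PROS1 0.25, PRRG1 0.31, TYRO3 0.38 and GAS6 0.40. The intervals leave room for changes below those sizes, so the members cannot be called unaffected by VK1.

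**Figure D3:**
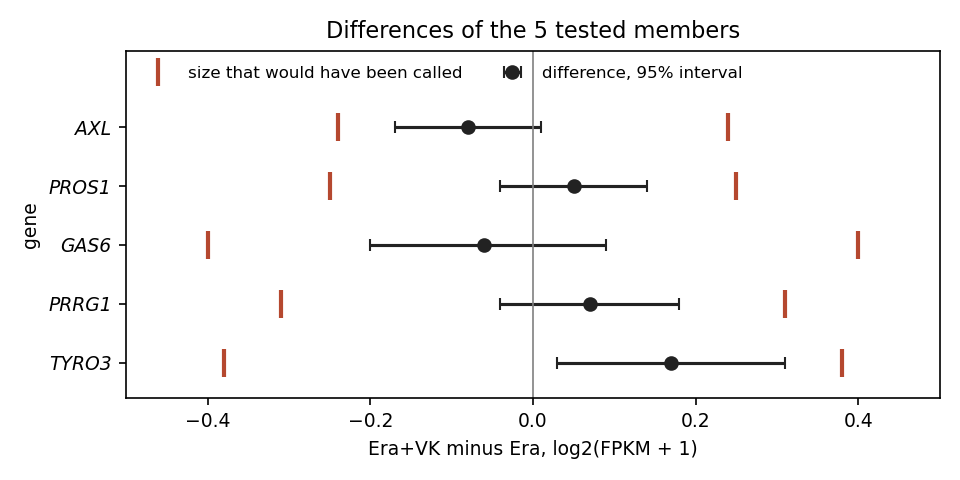
Era+VK minus Era on the log2(FPKM + 1) scale for the 5 tested members, with points for the limma estimates, horizontal bars for 95% intervals and red ticks for the difference each gene would have needed at the smallest t value of a called gene. The estimates run from -0.08 for AXL to 0.17 for TYRO3, and all lie inside the red ticks.

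Facts of the libraries that bear on these values are few. Between 24143 and 24601 genes per library were above 0 and between 11924 and 12027 reached 1 FPKM. The depth is unknown, because FPKM carry none and no steps of single reads could be found among the low values. Mitochondrially encoded genes took 15.98% to 18.51% of the summed FPKM. Globin transcripts summed to 228.34 and 234.86 FPKM in Era+VK replicates 3 and 2 and to 0.61 FPKM or less in the other 4 libraries, and the 12 erythroid markers summed to 239 and 232 FPKM in Era+VK replicates 2 and 3 and to 0.21 FPKM or less in the others. With both of those libraries left out, the remaining Era+VK library still had AXL (86.09 FPKM) under and TYRO3 (1.80 FPKM) over every Era library, and the limma log2 differences were -0.06 and 0.15, with adjusted p = 0.566 and 0.462, the lone library being assumed to vary like Era.

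The label of the cells was set against fixed marker lists. Of 12 RPE markers 11 were analysed and 6 averaged at least 1 FPKM. Among them were OTX2 at 27.50 to 31.35 FPKM and the epithelial keratin gene KRT18 at 221.82 to 245.81. MITF stood at 15.49 to 15.81 FPKM in Era and 16.82 to 18.59 in Era+VK. The keratin gene KRT8 stood at 170.77 to 187.51 and 191.50 to 208.81 FPKM. Both were higher without overlap (limma adjusted p = 0.151 and 0.27), as were 15.1% of all genes tested. OTX2, KRT18, PMEL and BEST1 overlapped. LRAT, TYR and SERPINF1 averaged under 1 FPKM. The summed level of the list ran from 443 to 537 FPKM in Era and from 469 to 524 in Era+VK. The visual cycle genes RPE65 and RLBP1, which define mature RPE, were at 0.02 and 0.29 FPKM or less in every library. BEST1, a chloride channel gene of mature RPE, ran from 0.60 to 56.98 FPKM with no order by group. The label RPE is thus borne by transcription factors and keratins more than by the mature markers. Of 8 macrophage markers, listed because macrophages also use TAM receptors, 7 averaged under 1 FPKM. CD14 stood at 0.06 FPKM or less, CD163 at 0.02 or less, ITGAM at 0.04 or less and PTPRC at 0.14 or less. CSF1R, the receptor for macrophage colony-stimulating factor, was listed at 0.69, 0.12 and 0.12 FPKM in Era and at 0.07, 0.04 and 0.09 FPKM in Era+VK. Its groups did not overlap, but only by 0.12 against 0.09 FPKM and under the level for testing. Of the genes tested, 7.04% were lower without overlap. CSF1R exceeded MERTK in Era replicate 1. The macrophage markers CD14, CD163, ITGAM, PTPRC, LYZ and FCGR1A overlapped between the groups. The part of such cells in the receptor values was not tested. CD68, a lysosomal gene and the 1 macrophage marker above 1 FPKM, was listed at 43.27 to 50.72 FPKM in Era and 34.52 to 38.38 in Era+VK (limma adjusted p = 0.0628), and the summed level of that list ran from 43.7 to 51.7 and from 34.9 to 38.7 FPKM. All 8 endothelial markers averaged under 1 FPKM, with KDR the highest at 0.607, and summed to 0.92 to 1.32 FPKM in Era and 1.04 to 1.43 in Era+VK. Of 8 liver genes, which mark the source of the clotting factors, ALB and TF were analysed, at 0.03 FPKM or less and at 0.

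The pathway around these genes was described by 7 lists of 79 genes, of which 75 were analysed and 55 were tested. None was called in either direction in limma. At an unadjusted p under 0.05, 10 were higher and 3 lower in Era+VK, against the 10.4% and 5.42% of all genes given above. Groups without overlap were seen for 10 higher and 5 lower, against 15.1% and 7.04% of all genes.

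The vitamin K cycle regenerates the cofactor for carboxylation, and all 7 of its listed genes were tested, with 0 called and a median difference of -0.02. GGCX, the carboxylase itself, was listed at 4.43 ± 0.330 FPKM in Era and 4.37 ± 0.127 in Era+VK (SD, n = 3). VKORC1, the epoxide reductase that warfarin blocks, stood at 76.4 ± 1.22 and 78.7 ± 5.95 FPKM, and its paralog VKORC1L1 at 8.92 ± 0.117 and 9.03 ± 0.398 FPKM. The transcript of the reductase was thus many times that of the carboxylase in every library. AIFM2, which encodes the quinone reductase FSP1, stood at 6.62 ± 0.260 and 6.51 ± 0.320 FPKM. CALU, whose product binds and restrains the carboxylation system, stood at 66.3 ± 2.13 and 65.5 ± 3.09 FPKM.

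NQO1, another quinone reductase, was the 1 gene of the cycle without overlap. It was listed at 223.07, 214.02 and 218.52 FPKM in Era and at 181.83, 204.07 and 195.50 FPKM in Era+VK, with every Era+VK library lower. Its log2 difference was -0.17 (standard error 0.053, limma unadjusted p = 0.0123, adjusted p = 0.197), which did not pass. Among all genes tested, 15.1% were higher and 7.04% lower without overlap, so 1 of the 7 cycle genes does not stand apart.

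Of 9 other Gla proteins, the coagulation and bone genes F2, F10, PROC, PROZ and BGLAP were analysed, and none exceeded 0.14 FPKM in any library. F7, F9, PRRG3 and UCMA were not analysed here. The Gla protein transcripts measured in these cells were therefore almost all PROS1, GAS6 and PRRG1. The list of the secretory route had 5 of 7 genes tested, 0 called and a median of -0.03. In it FURIN, a propeptide-cleaving protease, was listed at 31.4 ± 1.07 FPKM in Era and 34.1 ± 2.78 in Era+VK, and P4HB, a protein disulfide isomerase, at 145 ± 4.09 and 142 ± 0.173 FPKM (SD, n = 3).

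For TAM signalling and shedding, 13 of 15 genes were tested, with 0 called, 0 at an unadjusted p under 0.05 and a median of 0.05. The sheddases that cleave AXL and MERTK, ADAM10 and ADAM17, had differences of -0.01 (limma adjusted p = 0.955) and 0.08 (limma adjusted p = 0.475). ADAM17 was the 1 tested gene of this list without overlap, at 4.49 to 4.69 FPKM in Era and 4.74 to 4.99 in Era+VK. Among all genes tested, 15.1% were higher without overlap. The adaptors and small GTPases PIK3R2, RAC1 and GRB2, the highest of the list, stood at 35.6, 34.5 and 23.6 FPKM over all libraries, with differences of 0.04, -0.06 and 0.07. SOCS1, which TAM signalling induces in immune cells, stood at 0.06 to 0.12 FPKM in Era and 0.13 to 0.26 in Era+VK. Its groups did not overlap, but it was under the level for testing. SOCS3 stood at 1.90 to 2.63 FPKM, with overlap.

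Of the 9 phagocytosis partners and other MERTK ligands, 6 were tested, with 0 called and a median of 0.02. ITGAV and ITGB5, the integrin that binds outer segments in the RPE, stood at 26.1 and 65.6 FPKM over all libraries, and MFGE8, its phosphatidylserine-binding ligand, at 17.4 FPKM. CD36, TULP1 and TUB did not exceed 0.07 FPKM. ANXA1, a phosphatidylserine-binding annexin, was listed at 99.77, 97.22 and 99.43 FPKM in Era and at 80.22, 90.80 and 86.41 FPKM in Era+VK. All its Era+VK values were lower, with a log2 difference of -0.20 (limma unadjusted p = 0.00529, adjusted p = 0.147). MYO7A, the myosin that moves phagosomes and melanosomes in the RPE, stood at 9.44 ± 0.957 FPKM in Era and 12.4 ± 1.85 in Era+VK (SD, n = 3), with overlap between the groups (limma unadjusted p = 0.0131, adjusted p = 0.198).

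The list of MGP and BMP signalling held most of the genes with a low unadjusted p. MGP, itself not analysed here, binds bone morphogenetic proteins and restrains their signalling. Of 21 genes 15 were tested and 0 called. At an unadjusted limma p under 0.05, 8 were higher and 1 lower, against 10.4% and 5.42% of all genes. A higher mean log2 level in Era+VK was seen for 12 of the 15. The median was 0.14 beside 0.03 over all genes. Groups without overlap were seen for 8 genes higher and 1 lower, against 15.1% and 7.04% of all genes. The list was chosen with earlier results of these data known, so these counts are a description.

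Among its BMP-responsive genes, ID3, an inhibitor of basic helix-loop-helix factors, was listed at 93.34, 96.88 and 86.25 FPKM in Era and at 117.39, 141.37 and 109.99 FPKM in Era+VK. ID2 was listed at 13.38, 11.43 and 12.84 FPKM in Era and at 17.43, 16.61 and 14.70 FPKM in Era+VK. For both genes every Era+VK library was higher, with log2 differences of 0.41 (limma adjusted p = 0.113) and 0.35 (limma adjusted p = 0.105). ID1 overlapped, at 58.6 ± 7.89 and 64.0 ± 8.69 FPKM (SD, n = 3). The inhibitory SMAD6 differed by 0.27 (limma adjusted p = 0.159) and SMAD7 by 0.17 (limma adjusted p = 0.285).

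Of the ligands, BMP6 was listed at 6.68, 6.45 and 6.80 FPKM in Era and at 11.00, 10.99 and 7.30 FPKM in Era+VK. Its higher values came from Era+VK replicates 1 and 2, and Era+VK replicate 3 lay near Era. The log2 difference was 0.47 (standard error 0.13, limma adjusted p = 0.17), and 0.65 without Era+VK replicate 3 (limma adjusted p = 0.0184), so that library decided whether BMP6 passed. BMP4, the most abundant BMP ligand of the list, stood at 44.3 ± 1.65 and 42.4 ± 0.921 FPKM (SD, n = 3). BMPER, a secreted BMP-binding protein, was lower in every Era+VK library, at 10.07 to 10.51 against 11.77 to 12.04 FPKM (log2 difference -0.20, limma adjusted p = 0.0881).

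**Figure D4:**
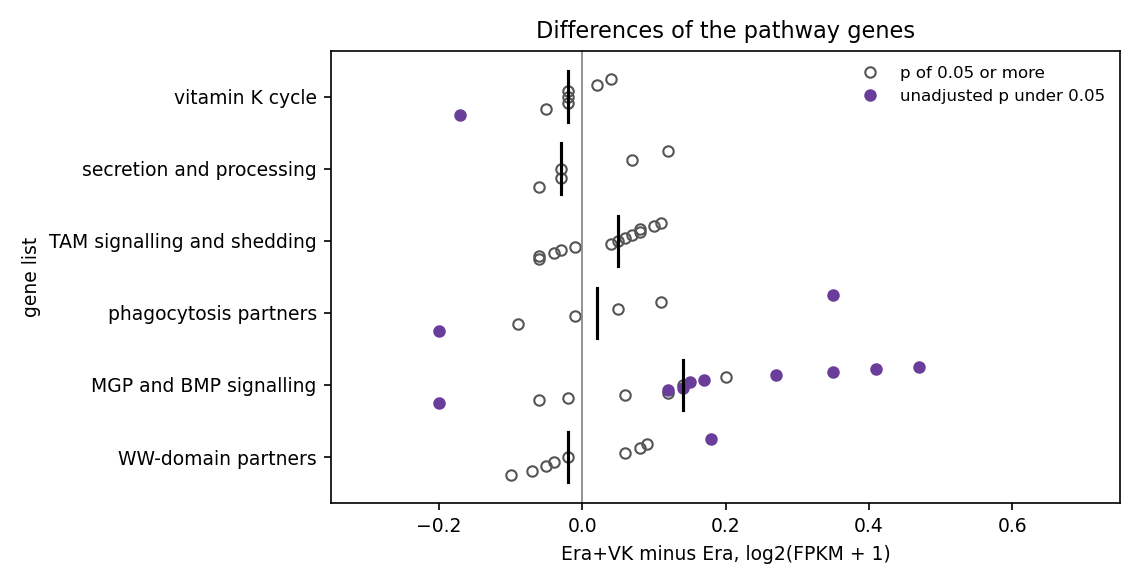
Era+VK minus Era on the log2(FPKM + 1) scale for the 55 tested genes of 6 lists, 1 symbol per gene, filled where the unadjusted limma p is under 0.05, with a black bar at each list's median. The list of other Gla proteins had 0 genes tested and is not drawn. The list of MGP and BMP signalling had 8 filled symbols right of 0 among its 15 tested genes, against 10.4% of all genes tested. Each other list had 1 or 0 among 5 to 13 tested genes. No symbol passed after adjustment.

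The WW-domain partners of PRRG proteins, mostly ubiquitin ligases and Hippo pathway coactivators, had 9 of 11 genes tested, 0 called and a median of -0.02. YAP1 and WWTR1, the coactivators, stood at 28.9 and 12.2 FPKM over all libraries and differed by -0.04 and -0.02. MAGI3, a scaffold protein, was higher in every Era+VK library, at 3.37 to 3.93 against 3.09 to 3.17 FPKM (log2 difference 0.18, limma adjusted p = 0.226).

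Among 3968 genes averaging 10 FPKM or more, those whose levels over the 6 libraries ran most like AXL were EZR (Pearson r = 0.992), NR2F2 (0.984) and ZFP36L1 (0.983). Those most like GAS6 were POLD1 (0.979), ALDOA (0.940) and MCM2 (0.923). Of these genes 19 reached an r of 0.95 with AXL and 1 with GAS6. The 6 points share their libraries, and for AXL the groups did not overlap. The values are given as a description of likeness across these libraries.

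Few transcripts near the members could add to their values. GAS6-AS1, on the other strand of GAS6, was listed at 0.08 to 0.22 FPKM, and AC011510.1, antisense within AXL, at 0.73 to 2.19 FPKM. TYRO3P, a processed copy of TYRO3, was listed at 0 in all 6 libraries. PROS2P, an unprocessed copy of PROS1, was not analysed here, and how reads shared with it were assigned is not given in the sources used here.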

How the data were processed

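RNA-seq values of 6 libraries, 3 Era and 3 Era+VK by their labels, were analysed. The authors deposited FPKM values with 2 decimals, 1 file per library. Their processing notes name cutadapt, HISAT2 and StringTie 2.1.6 and list the build as mm10, while the identifiers are human Ensembl genes. Which annotation, settings and strand option were used is not given in the sources used here. FPKM depend on everything else mapped in a library and do not preserve depth, so no counting error is given and no count model was used. Low values of single-exon genes were checked for whole-read steps and showed none (concentration 0.136 to 0.325 of a possible 1).

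The 11981 genes averaging 1 FPKM or more went into limma 3.58.1 (R 4.3.3), on log2(FPKM + 1) with trended empirical Bayes variances and the group as its single factor. Benjamini-Hochberg adjusted p-values over all of these genes were read at a threshold of 0.05. This scale understates changes of low genes. Members under 1 FPKM, shares and sums were compared by exact two-sided permutation tests over libraries in Python 3.11.15, each reported unadjusted. The fit was also run on simulated data with noise drawn independently for each gene and library. No result here rests on that run. Percentages called count genes by direction at an adjusted p or an unadjusted p under 0.05, or with groups that do not overlap. Intervals are at 95%.

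Positions and coding sequences were taken from GENCODE 29 (GRCh38) through the Ensembl identifiers, which matched for 31792 of 33496 genes, using the principal transcript and otherwise the longest. Members, lists and markers were chosen with earlier results of these data known. Named were all members, list genes past the threshold and up to 4 others per list by mean FPKM, the genes of the vitamin K cycle (the values of 1 are not reported here), GAPDH and ACTB, the 3 genes most like GAS6 and AXL, and 1 marker per marker list. Other list genes and markers were named after their values were seen. Alternatives were a pseudocount of 0.1, no filter, at least 1 FPKM in every library, quantile normalization, rescaling without mitochondrially encoded genes, the replicate number as a block, and leaving out libraries.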

Additional observations from a re-analysis of the deposited data

How the results depend on the processing

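The count of members called stayed at 0 under every alternative run, and the 5 tested members kept their direction in all 13 alternatives each, with log2 differences of -0.13 to -0.0055 for GAS6, 0.032 to 0.071 for PROS1, 0.035 to 0.11 for PRRG1, -0.087 to -0.06 for AXL and 0.14 to 0.26 for TYRO3. The lowest adjusted p of any of them in limma was 0.188 (TYRO3). Among members under 1 FPKM, PRRG2 (0.072 as reported) was 0.44 with a pseudocount of 0.1 and ran, with single libraries left out, from -0.024 without Era replicate 2 to 0.21 without Era replicate 3, and PRRG4 (0.02 as reported) ran likewise from -0.043 without Era replicate 2, with -0.0033 without Era+VK replicate 3, to 0.071 without Era replicate 3. Over all genes tested the 74 calls became 1 with no filter on low values, 122 with at least 1 FPKM in every library, 112 with quantile normalization and 35 without Era+VK replicates 2 and 3, and between 2 (without Era replicate 1 or 2) and 70 with single libraries left out. The cause was not tested. In the list of MGP and BMP signalling the count of 0 became 1 with quantile normalization (ID3, limma adjusted p = 0.0497), 1 without Era+VK replicate 3 (BMP6) and 1 without Era+VK replicates 2 and 3 (BMP6, limma adjusted p = 0.0311), and it stayed at 0 without each other single library.

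Same-numbered libraries of both groups deviated together only weakly (r = 0.071, 0.103 and 0.021 for numbers 1, 2 and 3). Differently numbered ones had r of -0.114 to 0.04. Each Era+VK library had its highest r with the same-numbered Era library, so these values cannot exclude pairing. The numbers were not taken as pairs in the main fit. With the replicate block 42 genes were called in place of 74, and 0 members. The depth of the libraries is unknown, and 3 libraries a group allow no exact two-sided p below 0.1.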
